A study of Daucus carota subsp. sativus with 2 samples.

Results

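Transcripts named for 2 kinds of sieve-tube protein were compared between 1 root library of an orange hybrid carrot and 1 root library of the red Delhi carrot (Daucus carota subsp. sativus). Members were every row of the count table whose protein name contains "phloem protein 2-2" or "sieve element occlusion", which gave 9 of 19838 transcripts, of which 7 were phloem protein 2-2 (PP2-2) and 2 were sieve element occlusion (SEO) transcripts. All 7 PP2-2 rows carry the same gene name, PP2-2, and are called copies here, but the files do not say whether they are separate genes or transcripts of 1 gene. The labels describe both plants as untreated and give no plant age, number of plants or growth conditions. The series title calls the red carrot wild and the orange one modified, without saying how. Both libraries were made from poly(A)-selected RNA. They held 7432754 counts in the orange library and 11310179 counts in the red library. With 1 library per variety no difference has a replicate check, so every statement is about these 2 libraries. The intervals given are 95% intervals that cover counting error only. They are exact Clopper-Pearson intervals, except for 1 difference between shares, where this is stated.

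Sieve tubes are the living conduits of the phloem, which carry sugar from leaves to storage organs such as the carrot root. Phloem protein 2 is a lectin, a protein that binds sugar chains, made in companion cells and found in large amounts in the sap of cucurbits. There it joins with another phloem protein into filaments that can plug the pores between sieve elements after wounding. SEO proteins form the structural filaments of sieve elements in Arabidopsis and the forisomes of legumes, and are a separate protein family from the PP2 lectins.

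The PP2-2 transcripts were lower in the orange library as a family. Their sum was 3572 counts in the orange library, 0.0481% of all its counts (0.0465 to 0.0497), against 35296 counts and 0.312% in the red library (0.309 to 0.315). After scaling each library by its median-of-ratios size factor, the family sum was 8.68-fold lower in orange (8.38 to 8.98). Reads exchanged between similar copies would leave the sum unchanged but alter the values of single copies, so single copies are less certain. The sum is not protected against reads left out of the counts because they match several copies. The counting settings are not stated, so whether such reads were left out, and equally in both libraries, was not tested. In whole roots, fewer phloem cells and less PP2-2 RNA per cell cannot be told apart, and other causes were not tested.

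**Figure D1:**
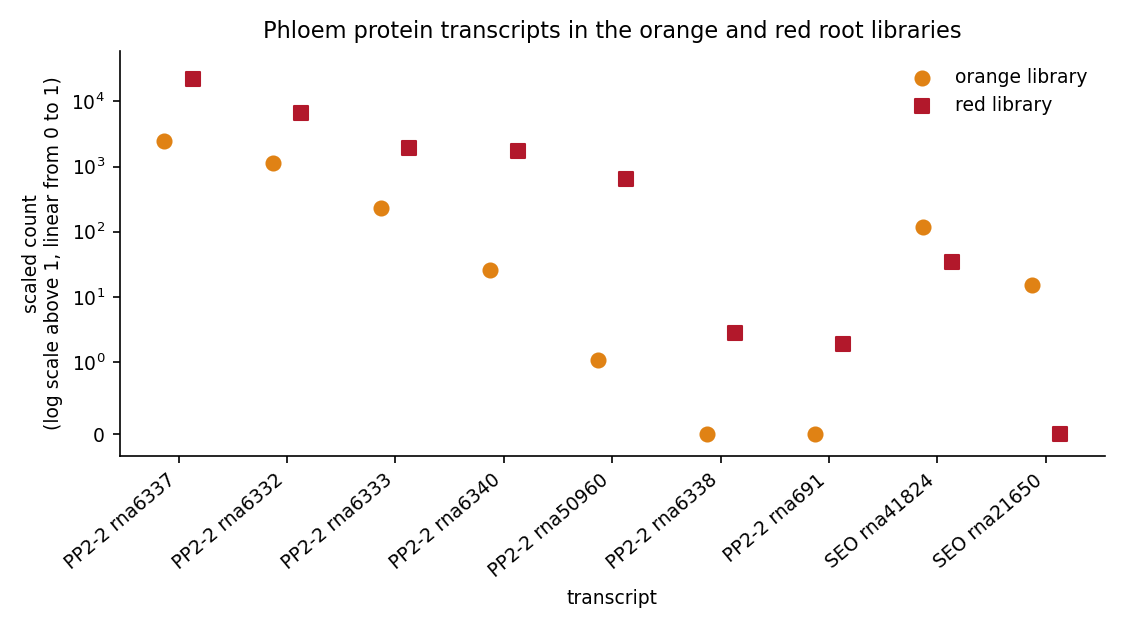
Scaled counts of the 7 PP2-2 and 2 SEO transcripts, 1 point per library (orange circles, red squares), on an axis that is logarithmic above 1 and linear from 0 to 1. The orange library lies below the red library at all 7 PP2-2 transcripts, although 2 of them have no more than 3 counts, and above it at both SEO transcripts.

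The copy with the most reads was rna6337, with 2279 counts in the orange library and 23606 in the red library. It ranked 555th of all transcripts by read count in orange and 42nd in red, and its scaled count was 9.10-fold lower in orange (8.71 to 9.50). The copy rna6332 followed with 1050 counts in orange and 7087 in red, a scaled count 5.93-fold lower in orange (5.56 to 6.33). For rna6333 there were 218 counts in orange and 2067 in red, 8.33-fold lower in orange (7.24 to 9.62). These 3 copies therefore differed between the libraries by similar folds, with overlapping intervals for rna6337 and rna6333 and a smaller fold for rna6332.

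A further 2 copies had few counts in the orange library. The copy rna6340 had 24 counts in orange and 1850 in red, a 67.7-fold lower scaled count in orange (45.4 to 106). The copy rna50960 had a single count (1) in orange and 681 in red, and its ratio of 598-fold lower in orange is known only to within 107 to 23658. The intervals of both lie entirely above those of the other 3 copies. In the authors' deposited table, which gives p-values from these same libraries, these 2 copies had the smallest unadjusted values of the family, 0.000286 for rna50960 and 0.00424 for rna6340. Their adjusted p-values in the authors' deposited table were 0.0646 and 0.257, and the other 7 members had an adjusted value of 1 there.

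The remaining PP2-2 transcripts, rna6338 and rna691, had 0 counts in orange, against 3 and 2 counts in red. Both groups are at or under the floor of 3 counts, so no fold is given and a difference was not detectable at this depth.

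Of the 7 PP2-2 transcripts, 5 had a mean scaled count of at least 10, the minimum for being counted as measured. All 5 of these were at least 2-fold lower in orange with an interval that excluded equality, and none (0) was at least 2-fold higher. Over all 14868 measured transcripts the same rule called 30.6% lower and 24.4% higher in orange. At 4-fold, all 5 copies were again lower and 0 higher, against 19.8% and 12.6% of measured transcripts. With libraries scaled to their total counts, the 2-fold rule again called all 5 copies lower, against 24.7% of measured transcripts lower and 33.8% higher. The median log2 ratio of the 5 copies, orange over red with a pseudocount of 0.5, was -3.19, and that of all measured transcripts was -0.06. The copies ranged on this scale from -8.67 to -2.57. Between 0.841% (rna50960) and 15.3% (rna6332) of measured transcripts had a log2 ratio as low as the copy's own or lower.

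**Figure D2:**
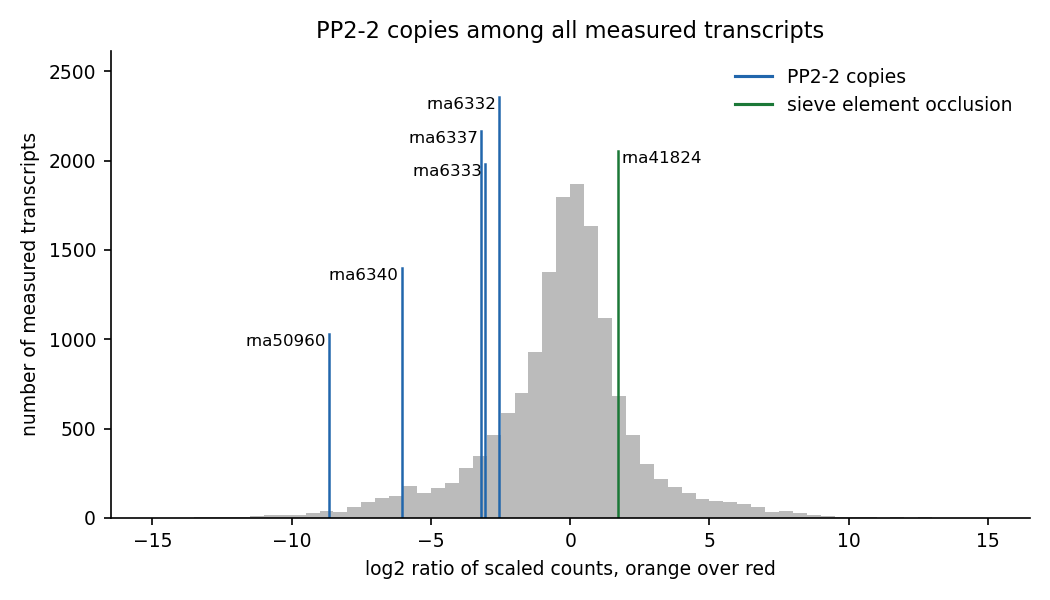
Number of measured transcripts by log2 ratio of scaled counts, orange over red, in bins of 0.5 (grey), with vertical lines at the 5 measured PP2-2 copies (blue) and the measured SEO transcript (green); line height carries no value. The copies rna6332, rna6333 and rna6337 lie between -3.19 and -2.57, while rna6340 and rna50960 lie at -6.05 and -8.67.

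Each copy's share of the PP2-2 counts is free of the scaling between libraries. Counts were not divided by transcript length, which the files do not give, so a share is of reads and not of molecules. The leading copy, rna6337, held 63.8% of the family counts in the orange library (62.2 to 65.4) and 66.9% in the red library (66.4 to 67.4). The difference was -3.08 percentage points, orange minus red (-4.75 to -1.42, an approximate interval combined from the limits of the 2 shares). The share of rna6332 was 29.4% in orange (27.9 to 30.9) and 20.1% in red (19.7 to 20.5), 9.32 points more in orange. For rna6333 the shares were 6.10% in orange (5.34 to 6.94) and 5.86% in red (5.61 to 6.11), with overlapping intervals. These 3 copies together made up 99.3% of the family counts in orange and 92.8% in red.

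The shares of rna6340 and rna50960 were smaller in orange. The copy rna6340 held 0.672% of the family counts in orange (0.431 to 0.998) and 5.24% in red (5.01 to 5.48). That of rna50960 was 0.0280% in orange (7.09e-04 to 0.156) and 1.93% in red (1.79 to 2.08). For the pair with no counts in orange, the exact interval of the share there reaches up to 0.103%. In red, rna6338 and rna691 held 0.00850% and 0.00567%, below that limit.

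**Figure D3:**
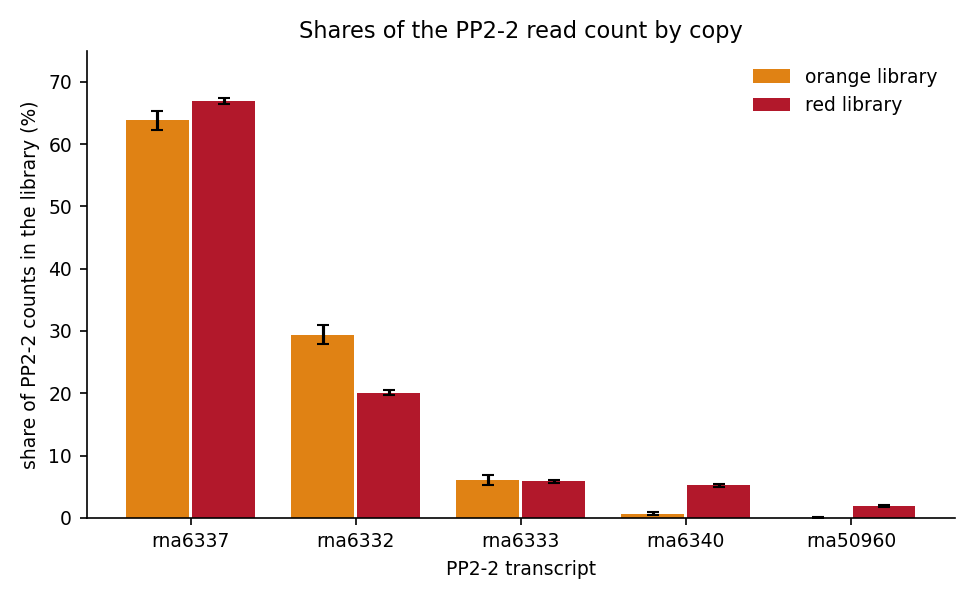
Share of the PP2-2 counts of each library held by the 5 measured copies (orange bars left, red bars right), with 95% exact binomial intervals. rna6337 leads in both libraries at 63.8% and 66.9%, rna6332 holds more in orange, and rna6340 and rna50960 hold more in red.

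The SEO transcripts had more counts in orange. The transcript rna41824, named sieve element occlusion, had 109 counts in the orange library and 37 in the red library, a scaled count 3.35-fold higher in orange (2.29 to 5.01). The transcript rna21650, named putative sieve element occlusion, had 14 counts in orange and 0 in red. With a floor of 3 counts put in place of the red count, it was 5.31-fold higher in orange. That value has no interval and leaves out counting error in the 14 counts, so it is not a lower limit. It fell below the minimum for being counted as measured. Summed, SEO transcripts had 123 counts in orange and 37 in red, a small number beside the PP2-2 sums. The protein families named for sieve-tube filaments and for phloem lectins thus had opposite directions in these libraries, with 1 measured SEO transcript behind that statement. A rule that pools all 9 transcripts gives 3695 counts in orange and 35333 in red, 8.40-fold lower in orange (8.12 to 8.69), and so follows the PP2-2 copies.

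Other transcripts, picked by name for functions of phloem, went both ways, and were not shown to be specific to phloem. Of 13 measured transcripts named for sucrose transporters, SWEET sugar exporters or sucrose synthases, 7 were at least 2-fold lower in orange (53.8%) and 4 were at least 2-fold higher (30.8%). Over all measured transcripts these shares were 30.6% and 24.4%. The median log2 ratio of the list was -1.19. Scaled to total counts, 6 of 14 were lower and 6 higher, against 24.7% and 33.8% of all measured transcripts, and the median was -0.04. The sucrose transporter cSUT, which moves sucrose across membranes, had 750 counts in orange and 2767 in red, 3.24-fold lower in orange (2.99 to 3.52). The sucrose synthase DCAR_002856, an enzyme that splits sucrose in sink tissue, had 869 counts in orange and 4046 in red, 4.09-fold lower in orange (3.80 to 4.41). Both folds were smaller than that of the PP2-2 sum, and their intervals did not overlap its interval. Callose synthase 10, of the family that makes the callose of sieve pores, had 1384 counts in orange and 2104 in red, 1.34-fold lower in orange (1.25 to 1.43), a difference that was absent with total-count scaling (log2 0.00). It was the only measured member of a callose list of 2, and the other, a glucan endo-1,3-beta-glucosidase-like transcript, had 0 counts in orange and 2 in red.

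Transcripts with lectin in their name, which do not include the PP2-2 copies, did not share one direction. Of 9 measured, 4 were at least 2-fold lower in orange (44.4%) and 2 at least 2-fold higher (22.2%), against 30.6% and 24.4% of all measured transcripts. The list includes receptor kinases with a lectin domain. The most abundant, a concanavalin A-like lectin/glucanase (rna35211), had 667 counts in orange and 5258 in red, 6.92-fold lower in orange (6.39 to 7.52). A receptor lectin kinase (rna26779) had 642 counts in orange and 54 in red, 13.5-fold higher in orange (10.2 to 18.2). The median log2 ratio of the list was -0.77. With total-count scaling, 3 of 8 were lower and 3 higher, against 24.7% and 33.8% of all measured transcripts, and the median was -0.04.

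Lists for other functions also differed between the libraries. The list called xylem and lignin includes cellulose synthases, which were not shown to be specific to xylem. It is therefore not a measure of xylem tissue. Xylem and lignin transcripts (laccases, cellulose synthases and cinnamyl enzymes) were at least 2-fold higher in orange for 15 of 22 measured (68.2%) and lower for 1 (4.55%). Over all measured transcripts, 24.4% were higher and 30.6% lower. The median log2 ratio of the list was 1.35, which is the opposite direction to the PP2-2 copies. Summed, these transcripts were only 1.24-fold higher in orange. Their most abundant members were cellulose synthases that differed little. DCAR_029673 had 7280 counts in orange and 7644 in red (log2 ratio 0.12), and DCAR_001143 had 5485 in orange and 7859 in red (log2 ratio -0.33, with a sign that turns with total-count scaling). Photosynthesis transcripts, in libraries labelled as root, were at least 2-fold lower in orange for 33 of 41 measured (80.5%) and higher for 3 (7.32%). The shares over all measured transcripts were 30.6% and 24.4%. The median of the photosynthesis list was -3.95. Photosynthesis transcripts took 0.313% of all counts in orange and 4.28% in red. Their most abundant members, the light-harvesting proteins CAB37 and DCAR_028844, were 12.4-fold and 22.6-fold lower in orange. This list thus moved with the PP2-2 copies and had a lower median, and the part of tissue make-up in the PP2-2 difference was not tested.

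Defence transcripts were at least 2-fold lower in orange for 5 of 12 measured (41.7%) and at least 2-fold higher for 4 (33.3%). Over all measured transcripts these shares were 30.6% and 24.4%. An osmotin (rna6928), of a family of antifungal proteins, had 4157 counts in orange and 63 in red, 75.1-fold higher in orange (58.6 to 98.0). The pathogenesis-related homeodomain protein PRH had 720 in orange and 779 in red. Its ratio of scaled counts, orange over red, was 1.05 (0.950 to 1.17), an interval that includes equality. Cytosolic ribosomal proteins were at least 2-fold lower for 2 of 51 and higher for 13, with a median log2 ratio of 0.26. The share higher, 25.5%, is near the 24.4% of all measured transcripts, and the share lower, 3.92%, is under their 30.6%. With total-count scaling 1 was lower and 20 were higher, with a median of 0.68. Their most abundant members were a 60S protein L10 (rna29532), with 8385 counts in orange and 6625 in red (log2 ratio 0.53), and the 40S protein S3a (cyc07), with 7764 in orange and 3017 in red (log2 ratio 1.55).

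**Figure D4:**
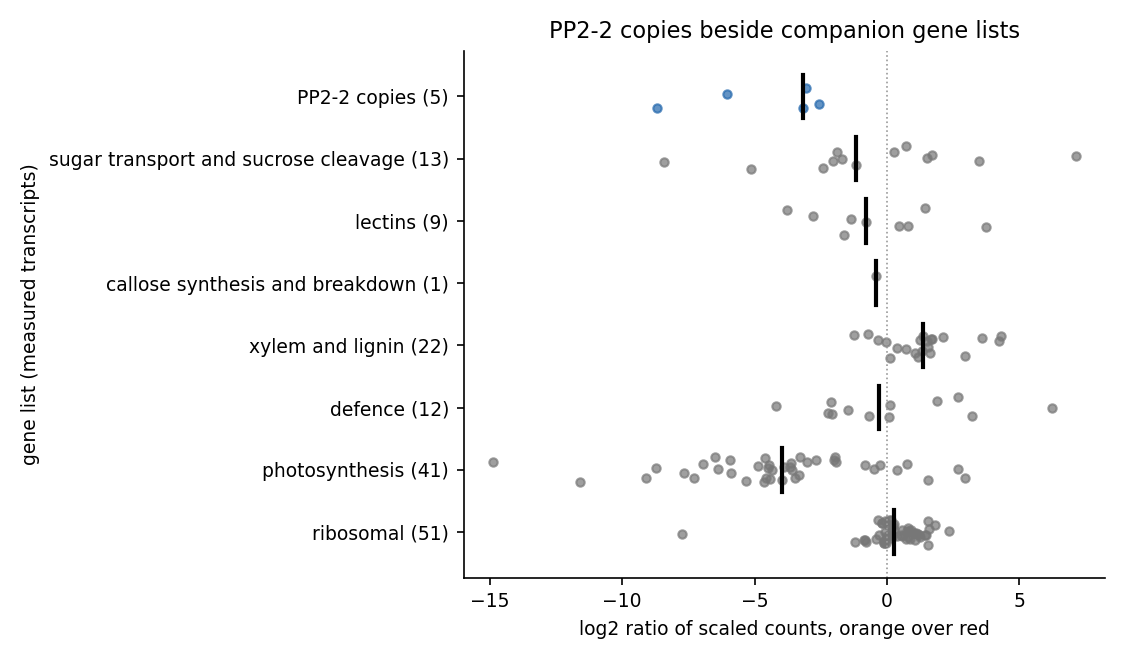
Log2 ratio of scaled counts, orange over red, of each measured transcript (points) in the PP2-2 family (blue) and 7 companion lists (grey), with the number measured in parentheses and the list median as a black bar; vertical scatter within a list carries no value. All 5 PP2-2 copies lie below 0, as do most photosynthesis transcripts, while most xylem and lignin transcripts lie above 0.

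With only 2 libraries a pattern is a single ratio, and likeness was measured as the gap between log2 ratios. The candidates were the 574 informatively named transcripts whose scaled counts averaged 1000 or more. The closest to the PP2-2 sum (log2 ratio -3.12) were DXR-1, S-linalool synthase (LINS) and a LytB protein. DXR-1, a reductoisomerase of plastid isoprenoid synthesis, had 197 counts in orange and 1957 in red, 8.72-fold lower in orange (7.53 to 10.2). LINS, which makes the scent compound linalool, had 222 counts in orange and 2142 in red, 8.47-fold lower (7.38 to 9.77). The LytB transcript, named for a reductase of plastid isoprenoid synthesis, had 518 counts in orange and 5296 in red, 8.98-fold lower (8.20 to 9.85). They were picked for the smallest gap, so their closeness to the PP2-2 sum is fixed by the choice.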

How the data were processed

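Poly(A)-selected root RNA was sequenced in 1 library of the orange and 1 of the red carrot, per the labels' protocols. Per the submitters' processing notes, the tools were DESeq, HTSeq, HISAT, cutadapt and FastQC; no version, setting, genome build or annotation is stated there. The authors deposited a read count per transcript, with protein and gene names. They also deposited normalised counts, a signal equal to the count times 1.07 for orange and 0.937 for red, which are the inverses of the size factors used here. The authors' deposited comparison tables give a fold (ratio) and its log2, which are orange over red by their value columns. The p-value and adjusted p-value in these tables were deposited by the authors as made from the same 2 libraries, with no statement of how the dispersion was set.

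Median-of-ratios size factors were 0.937 for orange and 1.07 for red, and scaled counts are counts divided by them. A transcript was measured at a mean scaled count of at least 10. A call needed a ratio of at least 2-fold and a 95% exact interval that excluded equality. Log2 ratios used a pseudocount of 0.5, and folds none. For a fold with a count of 0, a floor of 3 counts took its place, with no interval. No p-value was made here. The members and lists were chosen with earlier results of these data known. All members, the 2 most abundant transcripts of each companion list and the 3 nearest in ratio are named. Only 3717 transcripts (18.7%) had an informative protein name, so further phloem genes may be among the rest. None (0) of 15282 carrot locus tags, nor any member's name, was found in the RefSeq gene table, and no genome positions are printed. The rule was checked with simulated Poisson counts of 14857 transcripts for orange over red, where it called 99.5% of 199 transcripts changed by 4-fold or 8-fold and 0.437% of the unchanged ones. The simulation held no variation between plants or libraries, so these rates cover counting error only. They are not a rate of false calls between the 2 varieties. Alternatives were total-count, upper-quartile and TMM scaling (edgeR 4.0.16), other thresholds, filters and pseudocounts, and other family sums. Python 3.11.15 with scipy 1.17.1 was used.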

Additional observations from a re-analysis of the deposited data

How the results depend on the processing

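All 5 measured PP2-2 copies were at least 2-fold lower in orange, and none (0) higher, under each scaling, filter and fold threshold tried. None of these settings reversed the direction of a sum, of the SEO transcript rna41824 or of a single PP2-2 copy. The log2 ratio of the PP2-2 sum, orange over red, was -3.12, and became -2.70 with total-count scaling (6.49-fold lower in orange), -2.87 with upper-quartile scaling and -2.99 without rna6337. The sum over all 9 transcripts became -2.65, -2.82 and -2.86 under the same settings. Total-count scaling moves all log2 ratios by 0.42 toward orange, and upper-quartile scaling by 0.25. The median log2 ratio of the PP2-2 copies was -2.77 with total-count scaling, -2.94 with upper-quartile scaling and -3.06 without the filter on low counts, which takes in rna6338 and rna691. With SEO counts in the family sum, the share of rna6337 was 61.7% in orange and 66.8% in red, a difference of -5.13 points. TMM scaling moved none of these results beyond its counting interval. No paired analysis was possible because each variety has 1 library, and for the same reason no library could be left out. Depth limits rna50960, rna6338, rna691 and rna21650, each with 3 or fewer counts in at least 1 library.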

Other observations

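Most PP2-2 copies carry neighbouring transcript numbers. The 5 copies rna6332, rna6333, rna6337, rna6338 and rna6340 lie within a run of numbers that holds no other transcript of the count table, and together they held 99.97% of the PP2-2 counts in orange and 98.1% in red. Transcript numbers largely follow carrot locus numbers: of 14016 pairs of successive transcripts that both carry a DCAR locus number, 86.5% had locus numbers within 5 of each other. Genome coordinates were not used here, so whether the copies are neighbours on a chromosome, or transcripts of 1 gene, was not tested.

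The transcripts next to this run in number, chosen after their values were seen, were not lower in orange. Before it, rna6329 (DCAR_004333, uncharacterized) had 2150 counts in orange and 1851 in red, 1.32-fold higher in orange (1.24 to 1.41). Directly after it, rna6341 (DCAR_004334, uncharacterized) had 14 counts in orange and 0 in red, below the minimum for being counted as measured. The following rna6342 (DCAR_004335, uncharacterized) had 428 counts in orange and 35 in red, 13.9-fold higher in orange (9.86 to 20.3). Its neighbour rna6343 (DCAR_004336, uncharacterized) had 1656 in orange and 50 in red, 37.7-fold higher (28.5 to 51.0). The copy outside the run that differed most, rna50960, is numbered between transcripts with few reads, rna50954 with 3 counts in orange and 7 in red, and rna50962 with 6 in orange and 0 in red.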
